A study of Homo sapiens with 4 samples.

Results

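RNA sequencing measured 10 genes that bring long-chain fatty acids into the cell or activate them there, out of 28973 genes in the deposited table. They were taken by symbol: CD36, SLC27A1 to SLC27A5, ACSL1, ACSL3, ACSL4 and ACSL5, and each symbol stood on a single row. The cells were TOV-112D, an established human line of ovarian cancer. In the BSA group, 2 libraries came from cells given bovine serum albumin as the negative control, labelled 200 µM and 24 h. The 2 libraries of the PA group are titled as cells given palmitic acid, a saturated fatty acid of the kind these genes handle, at the labelled dose of 200 µM for 24 h. The description of these libraries gives an SPTLC2 knockdown and a protocol mentions shZDHHC15 cells, and ZDHHC15, a palmitoyltransferase gene, was 824-fold higher in them than in BSA. PA therefore stands for the libraries labelled PA throughout, and what palmitic acid and any change in ZDHHC15 each had to do with a difference cannot be told apart. The series asks what palmitic acid does to the biology of ovarian cancer.

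Long-chain fatty acids cross the plasma membrane with help from CD36, a scavenger receptor that binds them, and from the fatty acid transport proteins encoded by the SLC27A genes. Inside the cell a fatty acid is joined to coenzyme A before it enters most metabolic routes. This step is carried out by the long-chain acyl-CoA synthetases encoded by the ACSL genes. The SLC27A proteins, which carry the same enzyme activity, do part of it. The acyl-CoA then goes to membrane lipids, to triglyceride, to oxidation or to protein acylation, and the members differ in where in the cell they sit and in the fatty acids they prefer.

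The promoters of the 3 members with the largest positive fold changes and of CD36, the member with almost no reads, are shown to set GC-rich starts beside an AT-rich one. Each is the stretch of 250 bases before the first RefSeq start listed for the gene, on GRCh38.p14 and on the gene's own strand: chr9:128340277-128340526 (plus) for SLC27A4, chr2:222860786-222861035 (plus) for ACSL3, chr4:184825969-184826218 (minus) for ACSL1 and chr7:80601957-80602206 (plus) for CD36. Capitals mark every match to the motifs named after the sequences, on either strand.
SLC27A4: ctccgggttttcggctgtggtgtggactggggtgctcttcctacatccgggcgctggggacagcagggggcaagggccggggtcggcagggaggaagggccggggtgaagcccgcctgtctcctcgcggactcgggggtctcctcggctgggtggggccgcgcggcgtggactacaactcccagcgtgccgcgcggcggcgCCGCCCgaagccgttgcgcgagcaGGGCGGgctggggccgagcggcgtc
ACSL3: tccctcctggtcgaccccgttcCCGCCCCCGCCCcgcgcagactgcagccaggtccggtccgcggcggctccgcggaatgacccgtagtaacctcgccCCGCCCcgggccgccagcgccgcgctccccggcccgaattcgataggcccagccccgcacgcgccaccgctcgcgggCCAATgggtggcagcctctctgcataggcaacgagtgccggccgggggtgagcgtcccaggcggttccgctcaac
ACSL1: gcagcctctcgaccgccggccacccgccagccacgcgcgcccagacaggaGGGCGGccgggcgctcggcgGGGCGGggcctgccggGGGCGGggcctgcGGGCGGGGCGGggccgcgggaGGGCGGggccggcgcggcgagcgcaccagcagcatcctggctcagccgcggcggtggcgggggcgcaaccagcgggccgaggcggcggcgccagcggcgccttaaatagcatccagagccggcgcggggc
CD36: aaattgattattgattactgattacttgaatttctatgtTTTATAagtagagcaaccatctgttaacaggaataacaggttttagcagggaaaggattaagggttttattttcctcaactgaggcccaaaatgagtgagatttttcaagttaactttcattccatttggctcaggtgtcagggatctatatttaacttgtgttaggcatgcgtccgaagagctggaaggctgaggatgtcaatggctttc
The GC content was 75.2% for SLC27A4, 75.2% for ACSL3 and 83.6% for ACSL1, against 37.2% for CD36 and a median of 58.0% over all 35116 windows of this length in the RefSeq table.

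All 10 members had at least 1 such window, and windows of all listed starts were searched on both strands. The GC box (GGGCGG), which Sp1-type factors bind, stood in a window of 7 members, against 46.2% of all genes in the RefSeq table and 42.6% of all windows. CD36 has 6 listed windows, ACSL1 5 and ACSL5 2, while the other members have 1 each. Matches of this motif can overlap each other, as they do in the ACSL1 sequence. The CCAAT box (CCAAT) stood in a window of 5 members (37% of all genes, 32% of all windows), among them the ACSL3 window, 75 bases before the start. The TATA box (TATAAA) was found for 1 member, CD36, whose capitals show it on the opposite strand (13% of all genes, 10.7% of all windows). Another CD36 match lay on the gene's own strand, 216 bases before another listed start. A sterol regulatory element (TCACNCCAC), the site of SREBP factors, was found for 1 member. It lay in the window of another listed start of ACSL1, 242 bases before it, and 1.09% of all genes and 0.883% of all windows held one. No member had an E-box (CACGTG; 7.73% of all genes, 6.34% of all windows) or a perfect direct-repeat PPAR element (0.022% of all genes, 0.0171% of all windows). These are letter matches in a short window and say nothing about binding.

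Some values of the libraries as a whole bear on every member. Total counts ran from 23722074 to 31695944. The labels of the PA libraries conflict: the title and treatment name palmitic acid, while the description gives an SPTLC2 knockdown and the protocol mentions shCON and shZDHHC15 cells, without saying which libraries they are. ZDHHC15 had 291 and 225 counts in BSA, against 190083 and 167798 in the libraries labelled PA. SPTLC2 had 1524 and 1080 against 2194 and 1740, so neither gene was lower in those libraries. The SPTLC2 knockdown of the description is thus not seen in its RNA, while neither gene tests the palmitic acid of the title. Each direction below is drawn from libraries whose labels conflict. The BSA replicates lay further apart (SD of the log2 ratio over genes 0.883) than the PA replicates (0.272), and the BSA difference followed GC content. No label tells whether replicates were separate cultures, so the p-values cover the spread among these 4 libraries alone, and that spread may be technical. Of 7 epithelial and ovarian carcinoma markers 3 reached 1 FPKM in a library, namely KRT8 and KRT18 at 142 to 255 FPKM and PAX8 at up to 1.02, while EPCAM, KRT19, WT1 and MUC16 stayed below 1 FPKM in every library.

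Of the 10 members, 8 were expressed in this line, meaning at least 1 FPKM (deposited by the authors; counts adjusted for gene length and for the library total) in both libraries of a group. The 5 expressed in BSA were SLC27A4, ACSL4, ACSL3, SLC27A3 and SLC27A1. In PA these 5 met the limit again, as did ACSL1, SLC27A2 and ACSL5, which each had a BSA library under 1 FPKM. This is no gain of expression for SLC27A2, whose highest value lay in BSA replicate 1 (4.024 FPKM against 1.835 and 2.34 in PA). In CPM (counts scaled to library total) the lowest BSA values were 3.512 for ACSL1, 1.882 for SLC27A2 and 2.007 for ACSL5. At a limit of 1 CPM these genes would count as expressed in BSA too. SLC27A5 stayed below the FPKM limit in all 4 libraries, though its 4.393 to 5.739 CPM exceeded the 2.007 to 4.349 CPM of ACSL5. CD36 was close to 0. The limit of 1 FPKM in both libraries of a group was met by 42.4% of all genes.

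The order of FPKM levels was led by SLC27A4 in every library. In BSA it stood at 24.52 FPKM on average, apart from ACSL4 (7.212), ACSL3 (4.68), SLC27A3 (3.421), SLC27A1 (3.296) and SLC27A2 (2.351), and the ranges of each neighbouring pair from ACSL4 down to ACSL5 overlapped. In PA, SLC27A4 stood at 56.23 FPKM and ACSL3 was second at 16.34. There the ranges of no neighbouring pair overlapped, with SLC27A3 (5.953), SLC27A1 (5.041), ACSL4 (3.646), ACSL1 (2.584), SLC27A2 (2.087), ACSL5 (1.023) and SLC27A5 (0.574) following. With 2 libraries a range is a narrow basis for such an order. The order also rests on gene length, as counts over FPKM implied 14436 bases for ACSL3, 9971 for ACSL4 and 3229 for SLC27A4. In CPM, which takes no account of length, ACSL3 stood above SLC27A4 in both PA libraries (248 and 236.1 against 185.9 and 186.7). In BSA replicate 1, ACSL4 (114.2 CPM) and ACSL3 (93.35) stood above SLC27A4 (76.82). In BSA replicate 2 SLC27A4 stood above both (77.8 against 24.62 and 37.57).

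**Figure D1:**
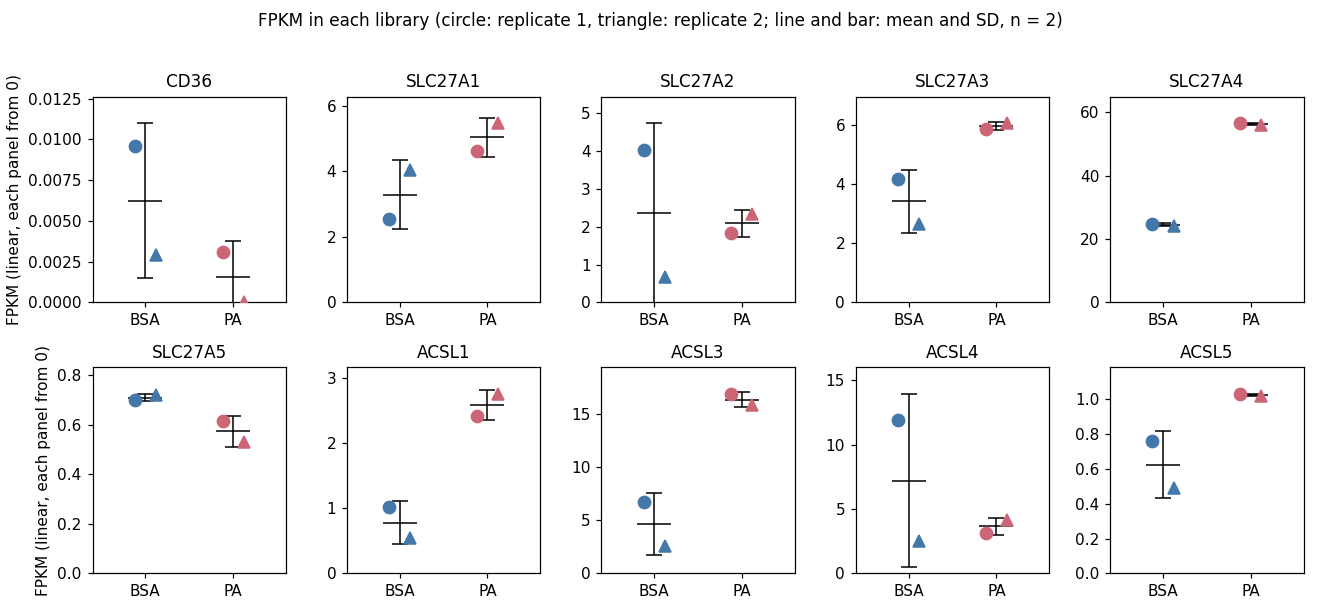
FPKM of each of the 10 members in each library, with BSA in blue and PA in red, circles for replicate 1, triangles for replicate 2, and the mean and SD (n = 2) in black, on a linear axis from 0 in each panel. The PA points of SLC27A4, ACSL1 and ACSL3 lie well above both BSA points, while the BSA points of ACSL4 and SLC27A2 lie on either side of the PA points.

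Over all 17449 genes that passed the filter on low counts, edgeR's quasi-likelihood test with Benjamini-Hochberg adjustment called 0 genes between PA and BSA at an adjusted p under 0.05 (0.0% of those tested; smallest adjusted p 0.0544), and therefore 0 of the 9 members tested. An unadjusted p under 0.05 was reached by 4241 genes (24.3%), of which 13.1% of those tested were higher and 11.2% lower in PA. Of the 9 members 4 were under that value, SLC27A4, ACSL1, ACSL3 and SLC27A3, all higher in PA, and 0 were lower. limma-voom called 0 members and 1 gene in all. Other fits called members too. SLC27A4, ACSL1 and ACSL3, all higher, were called both in DESeq2 (6.41% of all genes called) and in edgeR without a filter (4.72%). These shares are of 27574 genes with any count, so they include genes too low to pass the filter. ACSL1 and ACSL3 were called once a trend with each transcript's GC content and length was taken out (7.09%), and ACSL3 with a replicate block (3.08%). Without BSA replicate 1, 8 members were called higher and 0 lower, where 25.3% of all genes were called higher and 22.6% lower. Without BSA replicate 2, 5 were called higher and 2 lower, where 27.3% and 30.0% of all genes were. These last 2 fits call a large part of all genes. The median log2 fold change was 0.79 over the 9 members and -0.12 over all genes tested. The members' median was 0.39 with the GC and length trend removed, 1.22 without BSA replicate 1, 0.62 without BSA replicate 2 and 0.51 with limma on log2(FPKM + 1). The groups did not overlap for 7 of the members, 6 with PA above BSA (28.9% of all genes tested) and 1, SLC27A5, with PA below (29.1%), and without regard to direction the share of all genes was 58.0%.

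CD36 (ENSG00000135218, hg38 chromosome 7, 80369575 to 80679277, plus strand), the scavenger receptor through which fat, muscle, heart, endothelium and macrophages take up fatty acids, was nearly silent in this line. It had 3 and 1 counts in BSA, against 1 and 0 in PA. The largest exact 95% binomial upper bound in any library was 0.306 CPM (counts scaled to library total), and by the same method the PA library with 0 counts allows up to 0.156 CPM (0.126 CPM on the simpler limit of 3 counts). These limits cover counting error only. CD36 did not pass the filter on low counts. It entered edgeR without a filter (adjusted p = 0.7107) and DESeq2 (unadjusted p = 0.5758, with no adjusted value given), and no difference between the groups was detectable at this depth. Markers of the cell types known for CD36 were also low: 5 endothelial markers summed to 0.0399 and 0.0689 FPKM in BSA and 0.4958 and 0.4145 in PA, and 5 adipocyte markers to between 0.1931 and 0.3427 FPKM over the 4 libraries, with none at 1 FPKM. The 5 macrophage and leukocyte markers in the table summed to 1.176 and 2.36 FPKM in BSA and 4.69 and 4.923 in PA. CSF1R, the CSF1 receptor, made up most of the PA sum (3.554 and 3.92 FPKM), CD14 reached 1.13 FPKM in one BSA library, and CD68, LYZ and MRC1 stayed below 0.3 FPKM. In bulk RNA fewer cells of a type and less RNA per cell cannot be told apart.

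Among the transport proteins, SLC27A4 (ENSG00000167114, hg38 chromosome 9, 128340527 to 128361470, plus strand), which encodes FATP4, a synthetase of the endoplasmic reticulum with a preference for long and very long chains, had the most even values. It drew 2295 and 2481 counts in BSA, against 5406 and 4292 in PA, which after scaling to library size is 77.31 ± 0.697 CPM and 186.3 ± 0.543 CPM (SD, n = 2). Both PA libraries stood far above both BSA libraries, and each pair of replicates was nearly equal. The log2 fold change was 1.27 ± 0.19 (SE), or 2.41-fold, and it missed the threshold (edgeR adjusted p = 0.06895). The PA mean exceeded BSA replicate 1 by 1.273 and BSA replicate 2 by 1.254 on the log2 scale, so here the choice of BSA library hardly mattered. After this trend removal the log2 fold change was 0.97 (edgeR adjusted p = 0.05956).

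SLC27A1 and SLC27A3 were the next transport proteins by level. SLC27A1 (ENSG00000130304, hg38 chromosome 19, 17468769 to 17506168, plus strand) encodes FATP1, the insulin-responsive transporter of muscle and fat, and had 2.561 and 4.03 FPKM in BSA and 4.615 and 5.467 FPKM in PA. Both PA libraries were above both BSA libraries, but BSA replicate 2 came close to PA replicate 1 and the log2 fold change of 0.68 ± 0.34 (SE) did not pass (edgeR adjusted p = 0.2739). It was 0.32 after trend removal, 0.39 without BSA replicate 1 and 1.08 without BSA replicate 2, and it passed in these last 2 fits. SLC27A3 (ENSG00000143554, hg38 chromosome 1, 153774354 to 153780157, plus strand), whose product FATP3 acts mainly as an acyl-CoA synthetase, had 4.178 and 2.665 FPKM in BSA and 5.855 and 6.05 FPKM in PA. Its groups did not overlap either, with a log2 fold change of 0.88 ± 0.32 (SE; edgeR adjusted p = 0.1906) that became 0.39 after trend removal. It passed without either BSA library, at 1.22 (replicate 1 left out) and 0.62 (replicate 2 left out). The SLC27A3 gene overlaps INTS3 on the same strand, a gene with 4264 to 8192 counts per library, so reads could be assigned to either. SLC27A1 overlaps the noncoding PGLS-DT on the other strand (224 to 450 counts), and the use of strand in the counting is not given in the sources used here.

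SLC27A2 and SLC27A5 encode transporters with roles in liver, FATP2 and the bile acid-activating FATP5. SLC27A2 (ENSG00000140284, hg38 chromosome 15, 50182196 to 50236385, plus strand) had 322 and 60 counts in BSA, against 152 and 155 in PA. Both PA libraries lay between the BSA libraries, which differed 5.73-fold from each other in CPM, and the log2 fold change of -0.08 ± 0.81 (SE) carries a wide error (edgeR adjusted p = 0.9595). It was 1.68 without BSA replicate 1 and -0.84 without BSA replicate 2, opposite in sign and both past the threshold. Genes of similar GC content hardly differed between the BSA libraries (median log2 ratio of replicate 2 over replicate 1 0.0301, against -2.24 for SLC27A2). SLC27A2 overlaps ATP8B4 on the other strand, which had 45 and 5 counts in BSA, against 10 and 6 in PA. SLC27A5 (ENSG00000083807, hg38 chromosome 19, 58479512 to 58512413, minus strand) had 0.7001 and 0.7195 FPKM in BSA and 0.6175 and 0.5305 in PA. This was the sole member with both PA libraries below both BSA libraries, by a log2 fold change of -0.24 ± 0.31 (SE; edgeR adjusted p = 0.6572) that was -0.64 after trend removal. SLC27A5 overlaps ZNF446 on the other strand, which had 251 and 296 counts in BSA, against 110 and 90 in PA, and its part in the SLC27A5 counts was not tested. Of the hepatocyte markers, ALB was at 0 and the 3 in the table summed to at most 0.0946 FPKM in any library.

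Of the acyl-CoA synthetases, ACSL3 (ENSG00000123983, hg38 chromosome 2, 222860942 to 222944639, plus strand), an enzyme of the endoplasmic reticulum and of lipid droplets that feeds glycerolipid synthesis, had the highest levels in PA. Its fold change was the largest of the 9 members with all 4 libraries, while that of ACSL1 was larger without BSA replicate 2 (1.46 against 1.39 on the log2 scale) and without PA replicate 1 (1.94 against 1.885). It had 2789 and 1198 counts in BSA, against 7211 and 5429 in PA, or 6.742 and 2.618 FPKM against 16.84 and 15.85 FPKM. The PA libraries were close together and above both BSA libraries, which were 2.48-fold apart in CPM. The log2 fold change was 1.89 ± 0.46 (SE), or 3.70-fold, and it did not pass (edgeR adjusted p = 0.1115). It passed with the trend removed (2.45, edgeR adjusted p = 0.01688), without a filter, with a replicate block, in DESeq2 and without either BSA library, where it was 2.71 (replicate 1 left out) and 1.39 (replicate 2 left out). Its transcript is GC-poor (38.07% GC), and its BSA ratio of -1.30 (replicate 2 over replicate 1, log2) was close to the median of -1.34 for the tested genes in its bin of GC content (the lowest of 10).

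ACSL1 (ENSG00000151726, hg38 chromosome 4, 184755595 to 184826818, minus strand), the main synthetase of fat, heart and liver, was a low gene here. It drew 189 and 112 counts in BSA, against 467 and 424 in PA, and its level was 1.014 and 0.5432 FPKM against 2.42 and 2.748 FPKM. Both PA libraries exceeded both BSA libraries, and the log2 fold change was 1.81 ± 0.41 (SE), or 3.51-fold (edgeR adjusted p = 0.09781). It was 1.84 with the trend removed (edgeR adjusted p = 0.0391), 2.31 without BSA replicate 1 and 1.46 without BSA replicate 2, and it passed in these 3 fits, without a filter and in DESeq2.

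ACSL4 and ACSL5 gave less. ACSL4 (ENSG00000068366, hg38 chromosome X, 109624244 to 109733403, minus strand), which prefers arachidonic acid and supplies the polyunsaturated phospholipids that ferroptosis attacks, had 3413 and 785 counts in BSA, against 934 and 978 in PA. Both PA libraries lay between the BSA libraries, which were 4.64-fold apart in CPM, and the log2 fold change of -0.90 ± 0.72 (SE) did not pass (edgeR adjusted p = 0.4605). Without BSA replicate 1 it was 0.62 and without BSA replicate 2 it was -1.61, both past the threshold with opposite signs, and after trend removal it was -0.11. The BSA ratio of -2.19 for ACSL4 was larger in size than the -1.34 of genes of like GC content (37.43% GC). ACSL4 overlaps KCNE5 on the same strand, which had 18 and 67 counts in BSA, against 53 and 64 in PA. ACSL5 (ENSG00000197142, hg38 chromosome 10, 112374116 to 112428379, plus strand), a synthetase of mitochondria and endoplasmic reticulum known from intestine, had 0.7591 and 0.4881 FPKM in BSA and 1.027 and 1.019 in PA. Its PA libraries were nearly equal and above both BSA libraries, and the log2 fold change of 0.79 ± 0.37 (SE) did not pass (edgeR adjusted p = 0.2537), though it did without BSA replicate 1 (1.13). ACSL5 overlaps ZDHHC6 on the other strand, which had 3336 counts in BSA replicate 1 and 727 to 864 in the other libraries, against 64 to 126 for ACSL5 itself.

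**Figure D2:**
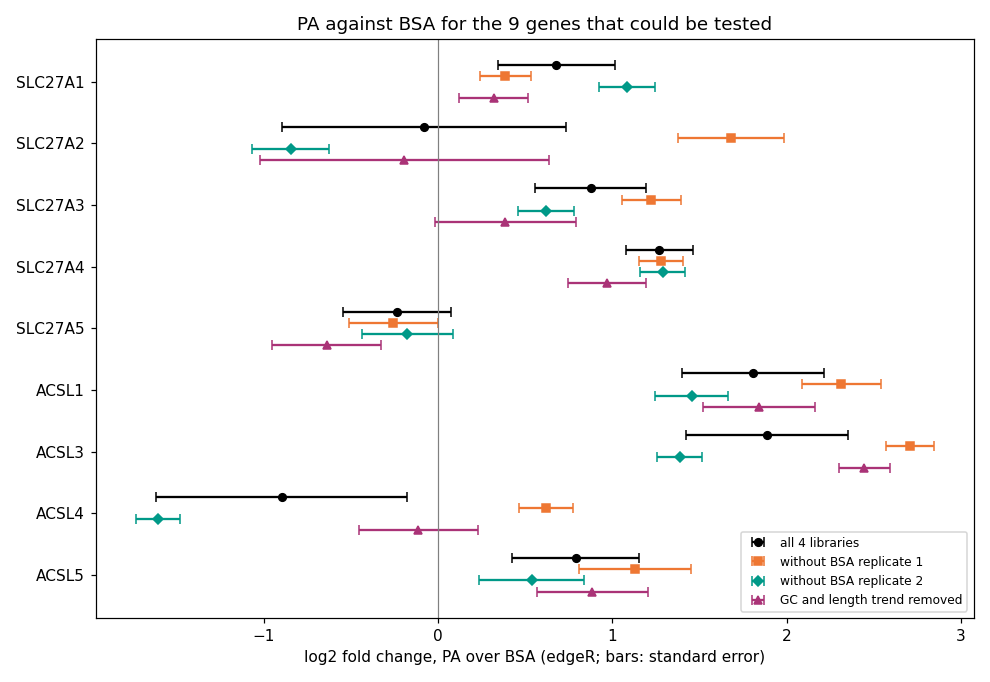
Log2 fold change of PA over BSA with its standard error for the 9 members tested, from edgeR on all 4 libraries, without either BSA library, and with the trend over GC content and length taken out. The 4 estimates of SLC27A4 lie between 0.97 and 1.29, while those of ACSL4 and SLC27A2 fall on both sides of 0 depending on the BSA library left out.

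Because all members of a library share its scaling, the make-up of each family was also taken within libraries. Of the summed FPKM of the 4 ACSL members, ACSL3 held 32.95% and 42.69% in BSA and 71.83% and 66.74% in PA, and ACSL4 held 58.38% and 40.5% in BSA and 13.47% and 17.41% in PA. Neither gene's groups overlapped, with ACSL3 higher by 31.46 percentage points and ACSL4 lower (-34 points). The shares of a library add up to the whole, so a larger ACSL3 share leaves less for ACSL4 and these differences are not independent. In FPKM, ACSL4 in PA (3.158 and 4.135) lay between BSA replicate 2 (2.484) and BSA replicate 1 (11.94). ACSL1 held 4.956% and 8.856% in BSA and 10.32% and 11.57% in PA. For these 3 genes an exact two-sided permutation test gave p = 0.33, the smallest it can give with 2 against 2 libraries, and ACSL5, at 3.71% to 7.958%, overlapped. The FPKM of ACSL3 over that of ACSL4 was 0.565 and 1.05 in BSA and 5.33 and 3.83 in PA. This FPKM ratio was higher in both PA libraries than in either BSA library, although the direction of ACSL4 itself depended on the BSA library. The genes have nearly the same GC content, yet their BSA libraries differed unequally. On the log2 scale, BSA replicate 2 over replicate 1 was -1.30 for ACSL3 and -2.19 for ACSL4, so the FPKM ratio is not free of that difference.

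In the SLC27A family, SLC27A4 held 68.39% and 74.97% of the summed FPKM of the 5 members in BSA and 81.37% and 79.57% in PA. Its share was higher in both PA libraries by 8.79 percentage points on average (exact permutation p = 0.33). SLC27A5 held less, 0.8902% and 0.7533% in PA against 1.93% and 2.225% in BSA, without overlap. A larger SLC27A4 share leaves less for SLC27A5, whose own log2 fold change was -0.24 (edgeR adjusted p = 0.6572). The shares of SLC27A1, SLC27A2 and SLC27A3 overlapped. The summed level of the family was 34.3 ± 2.78 FPKM in BSA and 69.89 ± 0.746 in PA (SD, n = 2), and that of the ACSL members 13.3 ± 10.1 and 23.6 ± 0.219. The ACSL sum in BSA replicate 1 (20.46 FPKM) came near those of the PA libraries (23.45 and 23.75), whereas BSA replicate 2 stood at 6.133.

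**Figure D3:**
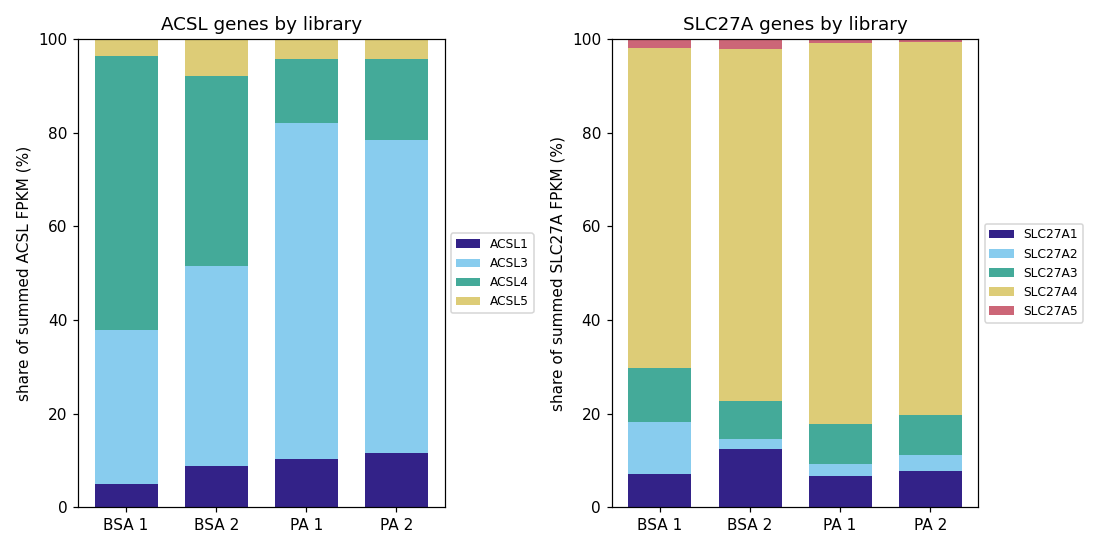
Share of each gene in the summed FPKM of the 4 ACSL members (left) and the 5 SLC27A members (right), as stacked bars for each of the 4 libraries. ACSL3 takes 66.74% or more of the ACSL sum in both PA libraries and at most 42.69% in BSA, and SLC27A4 is the largest SLC27A part in all 4.

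**Figure D4:**
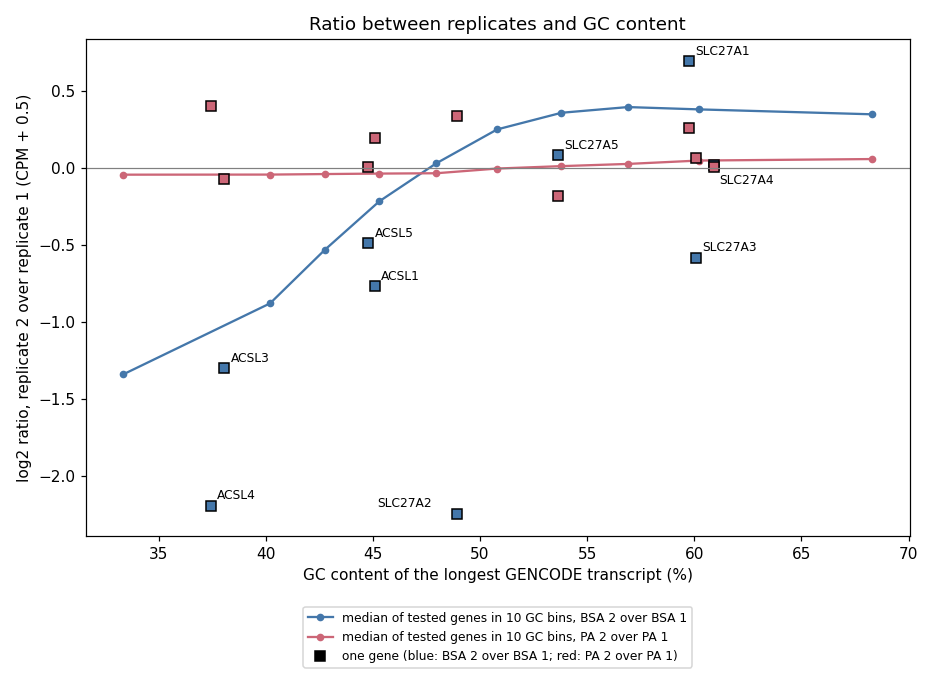
Log2 ratio of replicate 2 over replicate 1 in CPM (0.5 added) against the GC content of each gene's longest transcript, for the 9 members tested (squares) and as medians of all tested genes in 10 bins of GC content (lines), in blue for BSA and red for PA. The BSA line runs from -1.34 in the lowest bin to 0.349 in the highest, ACSL3 lies near it, and SLC27A2, SLC27A3 and ACSL4 lie furthest below it.

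The members differed in GC content, and the plot of replicate ratios sets them beside genes of like composition. The 5 SLC27A members had 48.9% to 60.9% GC and the 4 ACSL members 37.4% to 45.1%. In PA the replicates of the tested members lay within 0.40 of each other on the log2 scale. In BSA, SLC27A3 had a ratio of -0.58 where the median of its bin was 0.381, and SLC27A1 one of 0.69 in the same bin. The part that GC content or any other property of the BSA libraries had in the differences between the groups was not tested for single genes beyond the removal of the trend.

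The rest of the pathway was read from 7 lists of 94 genes in all, chosen with earlier results of these data known. As over all genes, 0 genes of any list passed after adjustment (edgeR, over all genes tested), so the counts that follow are at an unadjusted p under 0.05, where 13.1% of all genes were higher and 11.2% lower.

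Among other acyl-CoA synthetases, 10 of 16 genes in the table were tested, with 2 higher and 1 lower. ACSS2, which activates acetate, had a log2 fold change of 2.57 ± 0.22 (SE), ACSF2, a mitochondrial medium-chain synthetase, one of 0.69 ± 0.27, and AASDH, a relative of unsettled function, one of -2.56 ± 0.97, with 10.18 CPM in BSA replicate 1 and 1.568 in BSA replicate 2. The closest relatives of the members were low: ACSL6, a brain synthetase, had 1 count in BSA replicate 1 and 0 in the others, and SLC27A6, the heart transporter FATP6, had 110 and 52 counts in BSA, against 45 and 37 in PA. The median of this list was -0.15, and it changed sign to 0.12 without BSA replicate 1 and 0.28 without BSA replicate 2. Of 9 tested genes that bind fatty acids or acyl-CoA 3 were higher and 0 lower (median 0.20), namely FABP3 (1.10 ± 0.33), a cytosolic fatty acid carrier, DBI (0.75 ± 0.26), which binds acyl-CoA, and ACBD3 (0.77 ± 0.22), a Golgi protein with an acyl-CoA binding domain. Their list median was 0.335 without BSA replicate 1 and 0.087 without BSA replicate 2.

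Of 12 tested genes of other uptake and fatty acid sensing 3 were higher and 0 lower (median 0.35, which was 0.70 without BSA replicate 1 and 0.55 without BSA replicate 2). MFSD2A, which carries lysophospholipids with long fatty acids, stood at 2.912 and 1.348 CPM in BSA and 7.669 and 12.31 CPM in PA (log2 fold change 2.23 ± 0.52). SCARB1, the lipoprotein receptor of the CD36 family, stood at 150.6 and 127.8 CPM in BSA and 277.9 and 332.2 in PA (1.13 ± 0.22, edgeR adjusted p = 0.08642), so this relative was expressed where CD36 was not. ZDHHC5, a palmitoyltransferase that acylates CD36 at the membrane in fat cells, had a log2 fold change of 0.54 ± 0.19. The acyl-CoA thioesterases, which undo the synthetase step, had 0 higher and 3 lower of 10 tested (median -0.31): ACOT11 (-1.17 ± 0.33), THEM4 (-0.87 ± 0.27) and ACOT9 (-0.77 ± 0.23). Their median was -0.44 without BSA replicate 1, 0.04 without BSA replicate 2 and -0.40 with the trend removed.

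Of 8 genes of the carnitine shuttle, which moves acyl groups into mitochondria, 2 were higher and 0 lower (median 0.37). They were SLC25A20 (0.90 ± 0.26), the carrier of the inner membrane, and CRAT (0.88 ± 0.23), the acetyltransferase. The median of this list was 0.305 without BSA replicate 1, 0.58 without BSA replicate 2 and 0.265 with the trend removed. Of 13 tested transcription factors and coactivators of lipid genes 6 were higher and 0 lower (median 0.42). Their median was 0.80 without BSA replicate 1, 0.372 without BSA replicate 2 and 0.665 with the trend removed. SREBF1 (1.65 ± 0.23) and SREBF2 (1.78 ± 0.26), the sources of the SREBP factors, had the smallest p-values, before MLXIPL (1.47 ± 0.28), a glucose-responsive factor, and the nuclear receptor PPARD (1.02 ± 0.26). Of 11 tested PPAR targets 4 were higher and 1 lower (median 0.54). PDK4, which turns cells from glucose to fat oxidation, stood at 42.91 and 9.126 CPM in BSA and 164.4 and 154.3 in PA (2.62 ± 0.74), and PLIN2, a lipid droplet coat, at 78.69 and 98.78 CPM in BSA and 168.9 and 160.4 in PA (0.89 ± 0.22). UCP3, a mitochondrial carrier, was the lower one (-1.55 ± 0.48).

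**Figure D5:**
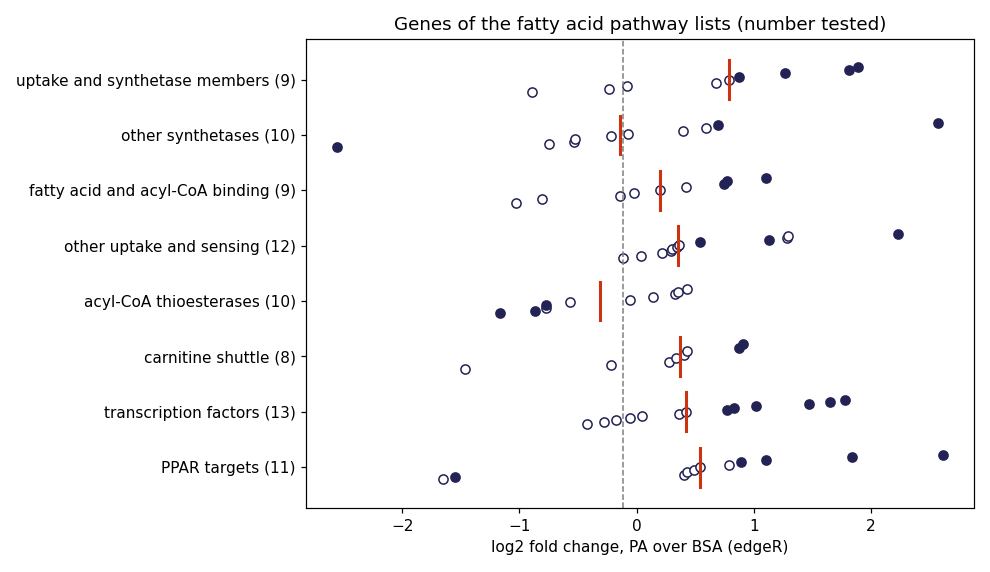
Log2 fold change of PA over BSA (edgeR) for each tested gene of the members and of the 7 pathway lists, filled where the unadjusted p is under 0.05, with the list median in red and the median of all genes tested (-0.12) as a dashed line. The members' median of 0.79 lies to the right of the list medians, which run from -0.31 for the thioesterases to 0.54 for the PPAR targets. With the GC and length trend removed this order changes, as the members' median is 0.39, below 0.665 for the transcription factors and 0.48 for the PPAR targets.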

How the data were processed

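RNA of 4 TOV-112D libraries was sequenced, and sample titles gave the groups. The submitters' processing notes name hg38, HISAT2, StringTie and SAMtools. The annotation release was not given in the sources used here, nor was the counting method or its strand setting. Values deposited were raw counts per gene and the authors' FPKM, per the file headers. Count over FPKM implied 1 length per gene in all libraries (median ratio of largest to smallest 1.0 over 10958 genes).

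Counts went through edgeR 4.0.16 (R 4.3.3; TMM, filterByExpr, quasi-likelihood F test, no replicate block), with Benjamini-Hochberg adjustment at 0.05 over the 17449 genes left by the filter. The standard error was taken as log2 fold change over the root of F, and CPM is TMM-normalised. A level of 1 CPM rests on 23.7 to 31.7 counts, depending on the library. The procedure was tested on simulated data, which held neither the GC-linked difference between the BSA libraries nor their wider spread. It therefore says nothing of how these affect the calls. As alternatives, edgeR was run with RLE or upper-quartile factors, unfiltered, at 1 CPM in 2 libraries, with a replicate block, and without each library. DESeq2 1.42.0, limma-voom (limma 3.58.1) as well as limma on log2(FPKM + 1) and on log2(FPKM + 0.1), were also run. A further edgeR fit took out a loess surface (span 0.3) of transcript GC content and log2 length, using the longest transcript in GENCODE 29, for 16596 genes.

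Members, lists, tests and alternatives were chosen with earlier results of these data known. Besides the members, the text names ZDHHC15 and SPTLC2, markers of other cell types that reach 1 FPKM, and at most 4 genes a list (unadjusted p under 0.05, 1 CPM or more on average, no overlap of groups). The fibroblast markers COL1A1 (11.6 to 15.9 FPKM) and PDGFRB (1.32 to 1.71) reached it, while COL1A2 was at 0. ACSL6, SLC27A6, overlapping genes and the other markers were named after their values were seen. Promoters came from RefSeq on GRCh38.p14, matched by symbol for all 10 members. Figures were drawn with matplotlib 3.10.9.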

Additional observations from a re-analysis of the deposited data

How the results depend on the processing

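Of the 9 members tested, 7 kept the direction of their log2 fold change in all 14 alternatives. The exceptions were ACSL4, which ran from -1.61 to 0.62 as libraries were left out in turn, and SLC27A2, which then ran from -0.84 to 1.68 (positive without BSA replicate 1 and without PA replicate 1) and was 0.40 with limma-voom, 0.37 with a replicate block, and 0.084 and 0.28 with limma on log2(FPKM + 1) and log2(FPKM + 0.1). The cause was not tested.

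Members past the threshold numbered 0 with all 4 libraries, 3 without a filter, 3 with DESeq2, 2 with the GC and length trend removed and 1 with a replicate block, and from 0 to 8 when a library was left out. Over all genes these counts were 0, 1302 (4.72% of those tested), 1768, 1176 (7.09%) and 537 (3.08%), and from 9 to 10467 with a library left out, against 1 with limma-voom and 1 with either FPKM pseudocount. Without BSA replicate 1, 8 members were higher and 0 lower, where 25.3% of all genes were called higher and 22.6% lower. Without BSA replicate 2, 5 were higher and 2 lower, where 27.3% and 30.0% were. In both fits the spread comes from PA only, and it is assumed that the lone BSA library varies like them. Same-numbered libraries share only a number (correlation of their deviations 0.0415 over genes), and the replicate block called 1 member, ACSL3.

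Under the other limits, 9 members were expressed at 0.5 FPKM, at 1 TPM (FPKM scaled to a common library sum) and at 1 CPM, with SLC27A5 added. At 2 FPKM 6 were expressed, without SLC27A2 and ACSL5. On raw counts, the difference in share was 1.68 percentage points for ACSL1 and -2.42 for SLC27A5, against 4.04 and -1.26 on FPKM. Leaving out a library moved the ACSL3 difference between 26.6 and 36.33 points and that of SLC27A4 between 5.5 and 12.1. Depth limits CD36, with at most 3 counts in a library, and bears on SLC27A2, ACSL5, SLC27A5 and ACSL1, whose lowest libraries had 60, 64, 101 and 112 counts.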
